A study of Mus musculus with 45 samples.

Results

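A set of long noncoding RNAs that are known for nuclear or neural functions was listed by name, Malat1, Neat1, Miat, Rmst, Kcnq1ot1, Dlx6os1 and Sox2ot, and 5 of these 7 genes were found among the 53491 genes of the expression tables. Malat1 and Neat1 had no row in the tables used here and were not analysed here. The values come from SLAM-seq, in which 4-thiouridine (4sU), a form of uridine that cells take up, is built into new RNA and alkylated, and a labelled T of the genome is then read as C. Primary cortical cells of wild type (WT) mouse embryos of stage E11.5, E14.5 or E16.5 were kept for 20 h in 100 uM 4sU, and the label was then chased with 5 mM uridine for 0, 2, 4, 8 or 12 h. Each stage had 3 pools of embryos (A, B and C; 7 embryos per pool at E11.5 and 2 later on), and the cells of 1 pool were divided over 5 wells, 1 for each chase time, which gives 45 libraries in 15 groups of 3. All cells had been dissociated with trypsin and kept in a medium for neural progenitors, all libraries carried 4sU, and the 0 h libraries served as the control for the chase.

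A long noncoding RNA is transcribed and usually spliced like an mRNA but is not translated, and many such RNAs stay in the nucleus. Miat, also called Gomafu, gathers in spots of the nucleus of neurons and binds splicing factors. Rmst is a neural transcript that works with the transcription factor SOX2 during the formation of neurons. Kcnq1ot1 is an imprinted antisense transcript that silences neighbouring genes on the paternal chromosome. Dlx6os1, also called Evf2, is made in the ganglionic eminences, where cortical interneurons are born, and acts on the neighbouring genes Dlx5 and Dlx6. Sox2ot is transcribed from a very long locus that contains the gene of SOX2, the factor that keeps neural stem cells undifferentiated. Malat1 is found in nuclear speckles, and Neat1 is the RNA scaffold of paraspeckles.

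Positions are those of GRCm38 (mm10). Miat (ENSMUSG00000097767, chr5:112213228-112229395, minus strand) and Rmst (ENSMUSG00000112117, chr10:92071037-92165170, minus strand) are annotated as lincRNA, with 9293 and 7423 exon bases. Kcnq1ot1 (ENSMUSG00000101609, chr7:143203458-143296549, minus strand) is annotated as antisense and has 1 exon of 93092 bases. Dlx6os1 (ENSMUSG00000090063, chr6:6820189-6871592, minus strand), also antisense, has 5215 exon bases. In the annotation 2 gene IDs carry the symbol Dlx6os1, the other a short misc_RNA at the same locus, and the single Dlx6os1 row of the tables was taken as the antisense gene. Whether that row also holds reads of the short one is not given in the sources used here. Sox2ot (ENSMUSG00000105265, chr3:34104270-34682619, plus strand), a processed transcript, has 11594 exon bases in a locus of 578350 bases. The exons of Sox2ot and Sox2 shared 0 bases, and so did those of Dlx6os1 and Dlx6. Of the exon bases of Miat, 2260 (24.3%) lie opposite the lincRNA Gm26953, which reached at most 0.289 reads per 1e6 reads (cpm) in any library. Of those of Rmst, 1955 (26.3%) lie opposite Gm26700, and whether the counting used the strand is not given in the sources used here, so reads of opposite genes may be mixed.

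The sequence for which Miat is known is the repeated UACUAAC, the consensus of the intron branch point that the splicing factor SF1 binds. The stretch of exon 7 of 7 below (chr5:112217221-112217460, minus strand, transcript bases 4931 to 5170) holds 3 of the 6 copies of TACTAAC in the longest Miat transcript of 9163 bases, searched on the transcript strand. The capitals mark the motif.

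Miat: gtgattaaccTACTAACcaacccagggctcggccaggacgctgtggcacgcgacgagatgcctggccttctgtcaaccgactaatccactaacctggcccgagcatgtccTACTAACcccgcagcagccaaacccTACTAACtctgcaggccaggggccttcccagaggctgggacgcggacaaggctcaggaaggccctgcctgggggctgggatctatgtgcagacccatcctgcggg

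Of 55450 genes, 1 had more than 6 copies in its longest transcript, and of 10723 noncoding genes 0 had more. Kcnq1ot1 had 4 copies in 93092 bases, or 0.0430 per 1000 bases against 0.655 in Miat. The longest transcripts of Rmst, Dlx6os1 and Sox2ot had 0 copies. Only T positions can carry the label, and since each rate below is taken over covered Ts, the share of T bears on how many positions are counted. It was 23.2% in Miat, 26.4% in Kcnq1ot1, 28.0% in Sox2ot, 28.3% in Rmst and 31.8% in Dlx6os1, with a median of 25.3% over 55450 genes.

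For Dlx6os1, whose level rose over the chase at E11.5 together with Dlx5, Dlx6 and Dlx1as, the promoters are shown (RefSeq, GRCm38.p6, 300 bases each, 5′ to 3′ on the minus strand). The capitals mark TAATTA, the core of the sites that homeodomain factors such as the DLX proteins bind, which reads the same on both strands. The first is chr6:6869484-6869783 and the other chr6:6861634-6861933.

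Dlx6os1, upstream promoter: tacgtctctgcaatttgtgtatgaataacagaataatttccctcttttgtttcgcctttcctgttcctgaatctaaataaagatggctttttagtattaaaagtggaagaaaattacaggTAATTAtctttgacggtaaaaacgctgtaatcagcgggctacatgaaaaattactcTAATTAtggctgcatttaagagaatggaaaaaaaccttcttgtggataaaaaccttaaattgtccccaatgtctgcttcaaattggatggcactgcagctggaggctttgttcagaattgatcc

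Dlx6os1, downstream promoter: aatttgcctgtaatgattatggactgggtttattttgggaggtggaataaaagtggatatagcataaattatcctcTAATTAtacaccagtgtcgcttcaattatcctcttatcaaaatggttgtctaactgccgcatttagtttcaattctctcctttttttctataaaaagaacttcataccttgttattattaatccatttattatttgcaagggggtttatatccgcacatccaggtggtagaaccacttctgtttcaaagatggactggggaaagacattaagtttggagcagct

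The first promoter holds 2 copies and the other 1. TAATTA was found in 1738 of 32851 promoters of the same length (5.29%), and at least 2 copies in 161 (0.490%). The promoters of Dlx1, Dlx2, Miat and Kcnq1ot1 had 0 copies in this window. Dlx5, Dlx6 and Dlx1as had no promoter among the 32851, so these genes were not compared. The shares were not matched for base composition, and whether DLX proteins bind these promoters was not tested.

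The libraries held 228.7 to 629.1 M covered T positions (median 473.2 M), or 15.9 to 43.9 M reads. Progenitor markers (Sox2, Pax6, Nes, Hes1, Hes5 and Vim) summed to 8222, 2867 and 1044 cpm at 0 h at the 3 stages in turn, and neuron markers (Tubb3, Dcx, Neurod2, Neurod6, Map2 and Stmn2) to 2902, 5947 and 8040 cpm, so the markers that define cortical cells were present at each stage. Other cells were present: erythroid markers summed to 2214 cpm and meningeal fibroblast markers to 455 cpm at 0 h at E11.5 (means of 3 pools), against at most 59.7 cpm for either in a pool of the later stages at 0 h, and markers of cortical hem and choroid plexus to 6.28 to 318 cpm at E16.5, highest in pool B. The row Gm42418 took up to 67623 cpm in the E11.5 libraries at 12 h, against a median of 2868 over all libraries. In these bulk samples, fewer cells of a type and less RNA per cell cannot be told apart.

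The first question was how the level of each RNA differed between stages at the end of labelling. Dlx6os1 rose at each step, Rmst fell at each step, Sox2ot and Miat fell from E11.5 to E14.5 and rose from there to E16.5, and Kcnq1ot1 rose from E11.5 to E14.5. Per exon length, the order at E11.5 was Sox2ot (1.22 cpm per 1000 exon bases), Rmst (0.674), Miat (0.508), Dlx6os1 (0.351) and Kcnq1ot1 (0.0334). At E16.5 the order was Dlx6os1 (9.40), Sox2ot (1.84), Miat (0.437), Rmst (0.0454) and Kcnq1ot1 (0.0447). All 5 genes were among the 18408 tested. From E11.5 to E14.5, 2 of 5 were higher and 3 lower at an adjusted p under 0.05 (edgeR's quasi-likelihood F-test on covered-T counts, Benjamini-Hochberg over all genes), where 25.1% of all genes were higher and 23.5% lower. From E14.5 to E16.5, 3 were higher and 1 lower, against 24.1% and 25.4% of all genes. Between E11.5 and E16.5, 3 were higher and 1 lower, against 31.4% and 33.1%.

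**Figure D1:**
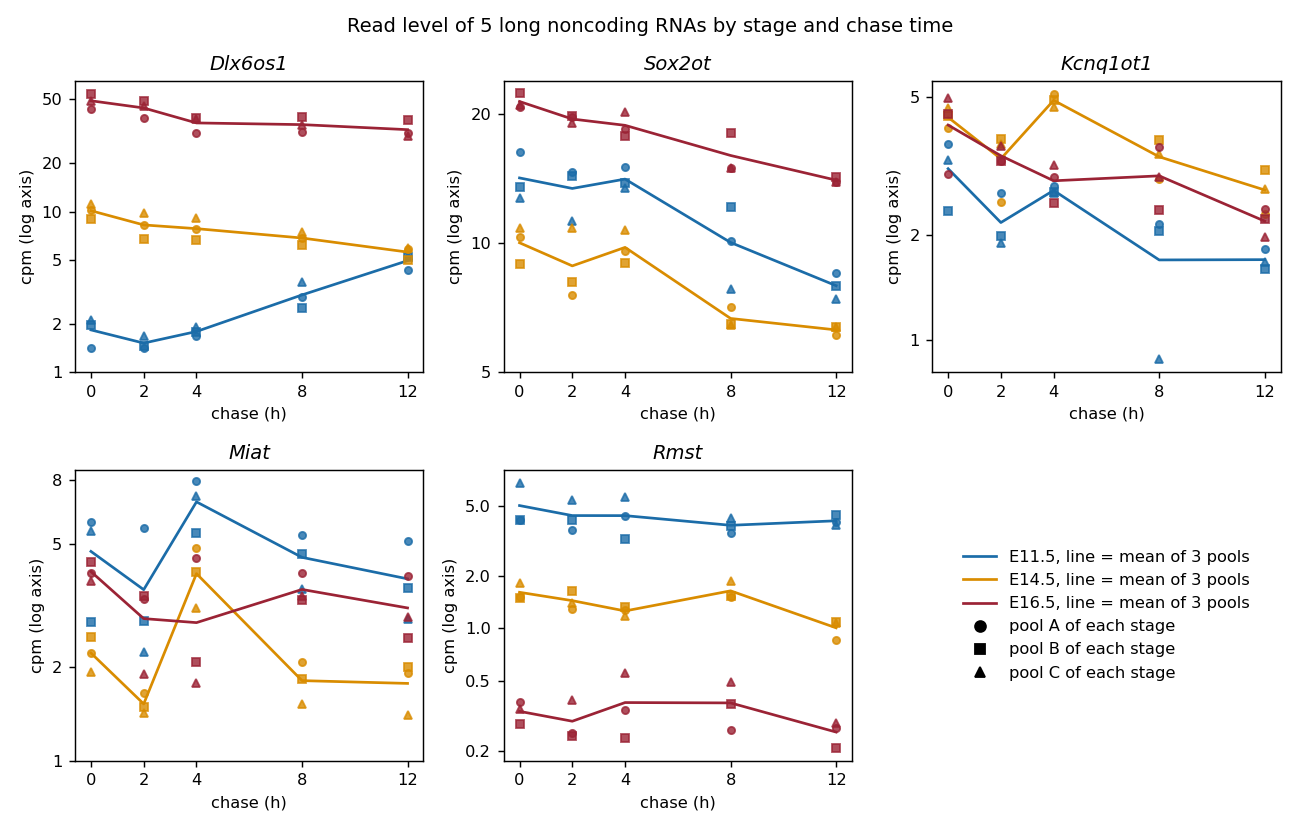
Read level (cpm, log axis) of 5 long noncoding RNAs against hours of chase, with 1 colour for each stage. Markers are single pools, and each line is the mean of the pools of a stage. Dlx6os1 climbs from 1.41 to 2.11 cpm at E11.5 to 43.8 to 54.2 cpm at E16.5 at 0 h. Its mean line climbs over the chase at E11.5 and falls at E14.5 and E16.5.

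Dlx6os1, the antisense RNA of the Dlx5 and Dlx6 locus, was at 1.41, 1.97 and 2.11 cpm in pools A, B and C at E11.5 (0 h). It was at 10.2, 8.97 and 11.2 cpm at E14.5, and at 43.8, 54.2 and 49.1 cpm at E16.5. The 3 groups did not overlap, and the lowest pool of each stage stood above the highest of the stage before. How many of all genes part in this way was not counted, here or for the other RNAs, between stages or over the chase. The level rose 5.69-fold from E11.5 to E14.5 (log2 fold change 2.51, SE 0.149, adjusted p = 2.76e-08, edgeR) and 4.88-fold from E14.5 to E16.5 (2.29, SE 0.145, adjusted p = 1.34e-07, edgeR). In the libraries of 12 h of chase, the first of these differences was 0.02 on the log2 scale (adjusted p = 0.900, edgeR).

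Over the chase, Dlx6os1 moved in opposite directions. At E11.5 the 3 pools were at 4.32, 5.22 and 5.30 cpm at 12 h, all above every earlier library of that stage, and the level rose 3.13-fold over 0 h (log2 fold change 1.65, SE 0.157, adjusted p = 5.41e-10, edgeR). At E14.5 the pools were at 5.85, 4.98 and 5.95 cpm at 12 h, below all 3 pools at 0 h (log2 fold change -0.85, SE 0.151, adjusted p = 7.49e-05, edgeR). At E16.5 they were at 30.8, 37.0 and 29.4 cpm, again below all 3 pools at 0 h (-0.57, SE 0.149, adjusted p = 0.00549, edgeR). This last call was lost without pool C (-0.50, adjusted p = 0.100). The change at E14.5 was below that at E11.5, with a log2 contrast of -2.50 (SE 0.218, adjusted p = 6.86e-10, edgeR), and so was that at E16.5, with a contrast of -2.22 (SE 0.216, adjusted p = 8.35e-09). Between E16.5 and E14.5 the changes differed by 0.28 (95% interval -0.13 to 0.70, adjusted p = 0.661). At 8 h the direction was the same as at 12 h at all 3 stages, with log2 fold changes of 0.71 (adjusted p = 0.00113), -0.60 (adjusted p = 0.00763) and -0.44 (adjusted p = 0.0433, edgeR).

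The chase was the second question, namely whether levels stay put while label is lost. Of all 16559 genes tested at 12 h against 0 h, 17.4% were higher and 9.8% lower at E11.5, 11.2% and 10.4% at E14.5, and 12.5% and 8.34% at E16.5. Among the 5 RNAs, 1 was higher and 2 lower at E11.5, 4 were lower at E14.5, and 3 were lower at E16.5. The change over the chase differed between E14.5 and E11.5 for 6.07% of all genes and 1 of the 5 RNAs, between E16.5 and E11.5 for 8.9% and 1 of 5, and between E16.5 and E14.5 for 0.906% and 0 of 5 (edgeR, 0 at an unadjusted p under 0.05 and 0 by DESeq2). Dlx6os1 was the 1 RNA in both cases. At 8 h against 0 h, 18.6%, 11.6% and 14.2% of all genes had changed at the 3 stages in turn, with 3, 2 and 2 of the 5 RNAs.

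**Figure D2:**
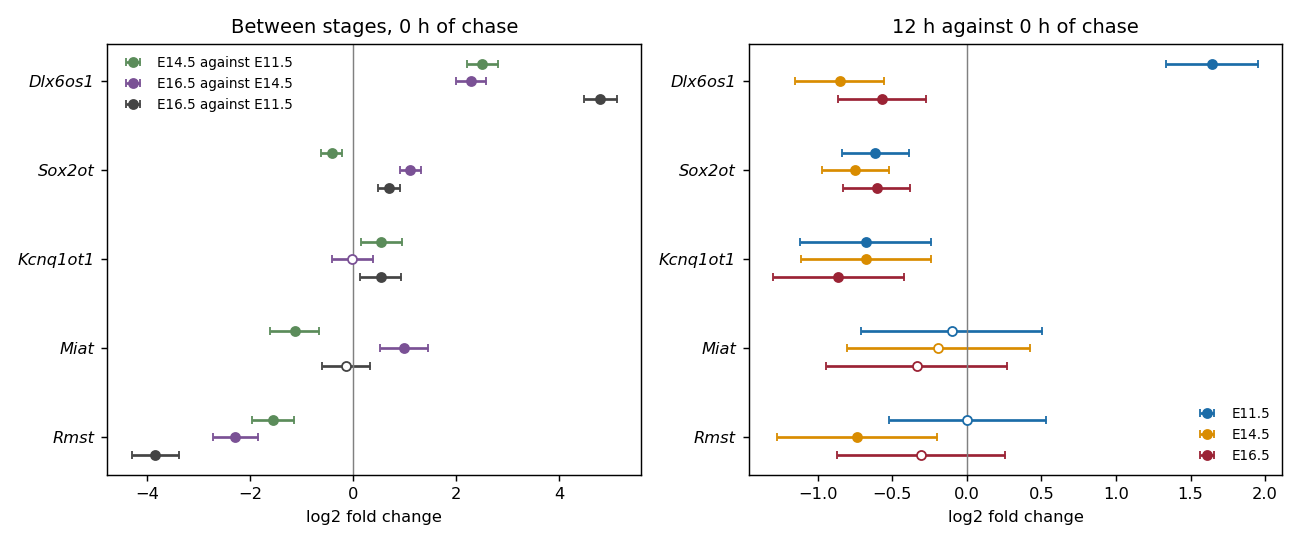
Log2 fold changes of the 5 RNAs between stages at 0 h (left) and from 0 h to 12 h of chase (right), with 95% intervals of the edgeR estimates. Dlx6os1 at E11.5 is the 1 RNA whose level rose over the chase, by 1.65, while 2, 4 and 3 of the 5 RNAs fell at the 3 stages in turn.

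The neighbours of Dlx6os1 were set beside it. Dlx5, a homeodomain factor of interneuron precursors, went from 5.01 ± 0.818 to 16.4 ± 1.17 cpm (mean ± SD, n = 3 pools) over the chase at E11.5 (log2 fold change 1.92, adjusted p = 8.10e-08, edgeR). At E14.5 its change was 0.26 (adjusted p = 0.456) and at E16.5 -0.20 (adjusted p = 0.581), and the contrasts with E11.5 were -1.66 (adjusted p = 0.000763) and -2.12 (adjusted p = 2.47e-05). Dlx6 went from 0.956 to 2.94 cpm at E11.5 (1.80, adjusted p = 0.000140, edgeR). Dlx1as, an antisense RNA of the Dlx1 gene in another chromosome's Dlx cluster, went from 0.194 to 1.15 cpm at E11.5 (2.98, adjusted p = 1.60e-12), and the contrasts with the later stages were -3.45 (adjusted p = 3.26e-10) and -3.29 (adjusted p = 1.02e-09, edgeR). Between stages the 4 transcripts parted: at 0 h from E11.5 to E14.5 Dlx1as rose with Dlx6os1 (log2 fold change 4.14, adjusted p = 2.48e-08), while Dlx6 fell (-1.15, adjusted p = 0.0165) and Dlx5 was at -0.44 (adjusted p = 0.0761, edgeR).

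**Figure D3:**
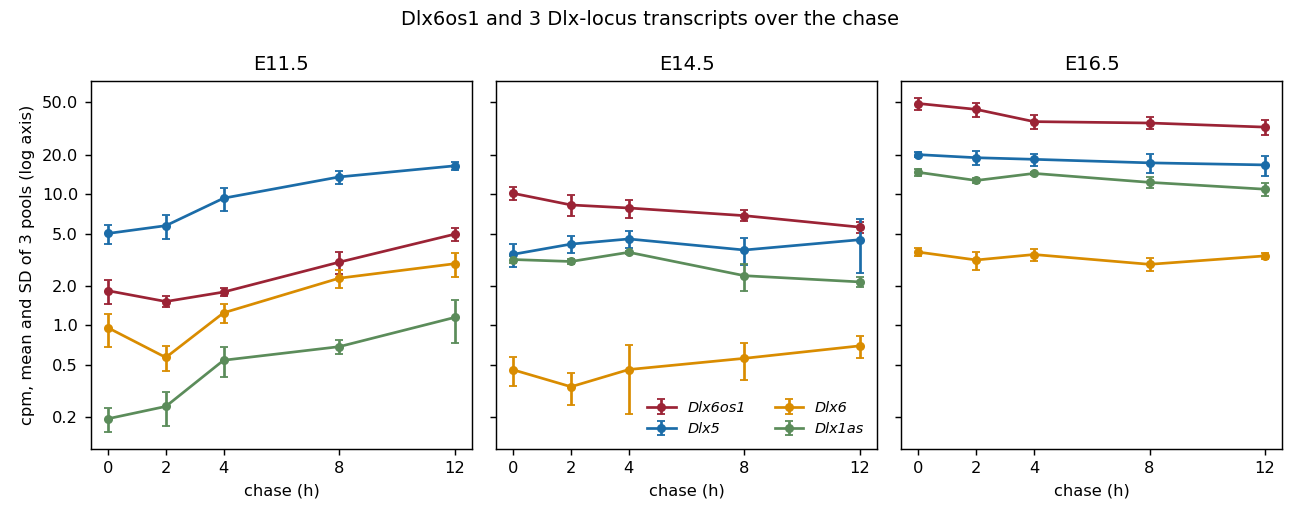
Level (cpm, log axis; mean and SD of 3 pools) of Dlx6os1, Dlx5, Dlx6 and Dlx1as against hours of chase at each stage. All 4 climb at E11.5, Dlx5 from 5.01 to 16.4 cpm, while at E16.5 Dlx6os1 declines from 49.0 to 32.4 cpm and Dlx5 is at 20.0 and 16.7 cpm.

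Markers of ganglionic eminence and interneurons (Gad1, Gad2, Dlx1, Dlx2, Dlx5, Lhx6 and Slc32a1; 6 of 7 tested) were set beside it, since their sum was higher where Dlx6os1 rose, over the chase at E11.5 and between stages at 0 h, while over the chase at E14.5, where Dlx6os1 fell, the sum was not lower. Their part in its change was not tested. At 0 h they summed to 39.9 to 45.7 cpm at E11.5, 57.1 to 61.2 at E14.5 and 299 to 306 at E16.5. At 12 h of chase the sums were 68.1 to 73.4, 61.8 to 87.0 and 264 to 282 cpm. Over the chase at E11.5, 5 of the 6 rose (Dlx1, Dlx5, Gad1, Gad2 and Slc32a1), where 17.4% of all genes did, with a median log2 fold change of 1.08 against 0.03 over all genes. At E14.5 2 of the 6 rose (Dlx1 and Dlx2), where 11.2% of all genes did, with a median of 0.21, and at E16.5 the median was -0.17. Gad1, which makes the transmitter GABA, stood at 0.477 cpm at E11.5 at 0 h and at 45.6 cpm at E16.5. Lhx6, a factor of medial ganglionic eminence interneurons, was at 0 in all E11.5 libraries at 2 h. At each other chase time of that stage, Lhx6 had reads in at least 1 library. From E11.5 to E14.5, 3 of the 6 rose and 1, Dlx2, fell, where 25.1% of all genes rose and 23.5% fell. From E14.5 to E16.5 all 6 tested rose, where 24.1% of all genes did, with a median of 2.43 against -0.0018 over all genes. Markers of oligodendrocyte precursors (Olig1, Olig2, Pdgfra and Cspg4) rose over the chase in 4 of 4 cases at each stage, where 17.4%, 11.2% and 12.5% of all genes were higher.

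Rmst, the neural lincRNA that works with SOX2, ran the other way. At 0 h it was at 4.15, 4.14 and 6.73 cpm in pools A, B and C at E11.5, at 1.51, 1.48 and 1.83 cpm at E14.5 and at 0.380, 0.284 and 0.347 cpm at E16.5. The groups did not overlap, a separation that was not counted over all genes. It fell 2.93-fold from E11.5 to E14.5 (log2 fold change -1.55, SE 0.212, adjusted p = 5.04e-05, edgeR) and 4.87-fold from E14.5 to E16.5 (-2.28, SE 0.221, adjusted p = 3.17e-06, edgeR), or 14.3-fold in all. At E16.5 this rested on 10 to 13 reads per library at 0 h. In rank among genes with reads, it stood at the 44.4th percentile at E11.5 and at the 23.0th at E16.5. The progenitor markers fell with it, 6 of 6 at each step, where 23.5% and 25.4% of all genes fell, and their part was not tested.

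During the chase Rmst was at 4.01, 4.41 and 3.87 cpm at 12 h at E11.5, beside 4.14 to 6.73 cpm at 0 h, and the log2 fold change was 0.0047 (95% interval -0.52 to 0.53, adjusted p = 0.993, edgeR). At E14.5 it was at 0.863, 1.08 and 1.08 cpm at 12 h, below all 3 pools at 0 h (-0.73, SE 0.273, adjusted p = 0.0499, edgeR), a call at the threshold that was lost without any of the 3 E14.5 pools (adjusted p = 0.114 to 0.230) and without E11.5 pool A or B. At 8 h the value at E14.5 was 0.12. Nedd1, a neighbouring gene whose protein helps to nucleate microtubules, also fell, from 44.3 cpm at E11.5 to 28.3 at E14.5 and 12.0 at E16.5, by 0.62 and then 1.22 on the log2 scale (log2 fold changes -0.62, adjusted p = 8.80e-05, and -1.22, adjusted p = 4.19e-07, edgeR).

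Sox2ot, whose locus spans Sox2, was at 16.3, 13.5 and 12.7 cpm in pools A, B and C at E11.5 at 0 h, at 10.3, 8.90 and 10.8 cpm at E14.5, and at 20.8, 22.3 and 20.9 cpm at E16.5. No 2 stages overlapped, which was not counted over all genes either. It fell by 0.42 on the log2 scale from E11.5 to E14.5 (log2 fold change -0.42, SE 0.106, adjusted p = 0.00567, edgeR) and then rose 2.16-fold to E16.5 (1.11, SE 0.107, adjusted p = 3.13e-06, edgeR). The value at E16.5 was also above that at E11.5 (0.69, SE 0.107, adjusted p = 7.53e-05). Sox2 itself fell at each step, from 270 ± 5.99 to 119 ± 16.4 and 82.3 ± 1.14 cpm (mean ± SD, n = 3), with log2 fold changes of -1.09 (adjusted p = 3.41e-07) and -0.59 (adjusted p = 8.40e-05, edgeR). From E14.5 to E16.5 Sox2ot and the gene within its locus moved in opposite directions.

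Sox2ot was lower at 12 h than at 0 h of chase at every stage. The pools were at 8.51, 7.93 and 7.40 cpm at E11.5, at 6.09, 6.36 and 6.35 cpm at E14.5 and at 13.9, 14.2 and 13.9 cpm at E16.5, each group below its 0 h libraries. The log2 fold changes were -0.61 (SE 0.115, adjusted p = 9.02e-05), -0.75 (SE 0.115, adjusted p = 9.17e-06) and -0.60 (SE 0.114, adjusted p = 0.000194, edgeR). At 4 h the 3 values were 0.02, -0.06 and -0.14 (adjusted p = 0.942, 0.792 and 0.526, edgeR), while at 8 h all 3 passed, at -0.50, -0.61 and -0.36. The differences of this change between stages had 95% intervals within -0.45 and 0.46. Sox2 did not pass at 12 h, with log2 fold changes of -0.12, 0.14 and -0.13 (adjusted p = 0.234, 0.153 and 0.184, edgeR).

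Kcnq1ot1, the imprinted antisense RNA, was at 3.68, 2.36 and 3.31 cpm at E11.5, at 4.08, 4.42 and 4.64 cpm at E14.5 and at 3.01, 4.48 and 4.99 cpm at E16.5 (0 h, pools A, B and C). The first 2 stages did not overlap, but pool A at E16.5 lay among the E11.5 pools. It rose 1.46-fold to E14.5 (log2 fold change 0.55, SE 0.201, adjusted p = 0.0381, edgeR), and E16.5 was above E11.5 by 0.54 (SE 0.201, adjusted p = 0.0328). Between E14.5 and E16.5 the difference was -0.01 (95% interval -0.41 to 0.38, adjusted p = 0.961). Both calls were lost when some single pools were left out. Without E11.5 pool B the first value was 0.40 (adjusted p = 0.135), and without E11.5 pool C or any 1 of the E14.5 pools it stayed at 0.52 to 0.60 with a larger SE (adjusted p = 0.0561 to 0.0914). The other call was lost without E11.5 pool B or C and without E16.5 pool B or C (0.38 to 0.54, adjusted p = 0.0588 to 0.125). With the replicate letter as a block the first had an adjusted p of 0.0531.

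Its level was lower at 12 h of chase at each stage, by log2 fold changes of -0.68 (adjusted p = 0.0208), -0.68 (adjusted p = 0.0259) and -0.86 (adjusted p = 0.00496, edgeR). The 12 h pools were at 1.60 to 1.83 cpm at E11.5, 2.30 to 3.09 at E14.5 and 1.98 to 2.38 at E16.5, each group below its 0 h libraries. At 8 h the values were -0.85 (adjusted p = 0.00641), -0.34 (adjusted p = 0.367) and -0.45 (adjusted p = 0.184, edgeR). The calls at 12 h were lost without E11.5 pool A (adjusted p = 0.179), without any pool at E14.5 (adjusted p = 0.0690 to 0.131) and without E16.5 pool B or C (adjusted p = 0.0845 and 0.131). In the imprinted domain, Cdkn1c, a cyclin-dependent kinase inhibitor made from the maternal chromosome, fell 2.02-fold over the chase at E11.5 (log2 fold change -1.02, SE 0.152, adjusted p = 3.01e-06). Its cpm, which is not scaled between libraries as the tested counts are, went from 50.2 to 21.2. At E14.5 and E16.5 its changes were -0.23 (adjusted p = 0.291) and -0.34 (adjusted p = 0.106), and the contrasts with E11.5 were 0.79 (adjusted p = 0.0184) and 0.68 (adjusted p = 0.0378, edgeR). Kcnq1, the ion channel gene in which Kcnq1ot1 starts, reached at most 0.0603 cpm in any library.

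Miat was at 5.87, 2.79 and 5.50 cpm at E11.5, at 2.23, 2.51 and 1.93 cpm at E14.5 and at 4.03, 4.36 and 3.79 cpm at E16.5 (0 h, pools A, B and C). The E14.5 pools were below all others, while pool B at E11.5 was below every E16.5 pool. It fell 2.20-fold to E14.5 (log2 fold change -1.14, SE 0.240, adjusted p = 0.00163, edgeR) and rose 1.99-fold to E16.5 (0.99, SE 0.240, adjusted p = 0.00406). E16.5 against E11.5 was -0.14 (95% interval -0.61 to 0.32, adjusted p = 0.617), and without E11.5 pool B it was -0.41 and passed (adjusted p = 0.0444). At 12 h of chase its 3 changes were -0.10, -0.19 and -0.34 (adjusted p = 0.854, 0.722 and 0.487, edgeR), with 95% intervals within -0.94 and 0.51. At 4 h of chase at E14.5 it was at 4.83, 4.06 and 3.11 cpm, above all other libraries of that stage. This rise of 0.94 (SE 0.313, adjusted p = 0.0433, edgeR) was 1 of 5 tests at that time, where 11.8% of all genes had changed. At 4 h the value was 0.54 (adjusted p = 0.282) at E11.5 and -0.48 (adjusted p = 0.392) at E16.5.

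The share of label at 0 h was set against that of the whole library, since libraries summed over all genes had 1.18%, 1.10% and 1.86% converted Ts at the 3 stages in turn. Rmst stood out at E11.5, with 1.62%, 1.60% and 2.05% of its Ts converted in pools A, B and C, or 1.49, 1.58 and 1.42 times the library rate, which put it at the 97.0th percentile of 13185 genes with over 500 covered Ts. At E14.5 it was at 1.48%, 1.37% and 2.47% (1.35, 1.17 and 2.41 times the library rate, 97.4th percentile). Dlx6os1 lay at the other end at E11.5, at 0.880%, 0.423% and 1.13% (1.50th percentile), from 3 to 12 converted Ts per library, so that the 95% exact binomial interval in pool B ran from 0.0873% to 1.23%. At E16.5, from 320 to 603 converted Ts, it was at 1.54 ± 0.112% (mean ± SD, n = 3), or 0.825 ± 0.0645 times the library rate.

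Of the 4 RNAs tested for the relative rate (Rmst had too few covered Ts at E16.5), 1 changed, and this was Sox2ot. Its rate was 1.12, 1.12 and 1.23 times that of the library in pools A, B and C at E11.5, 1.12, 1.10 and 1.00 at E14.5, and 0.983, 0.681 and 0.781 at E16.5, where all 3 pools were below those of the other stages. The log2 ratio of E16.5 to E11.5 was -0.52 (SE 0.127, adjusted p = 0.0272, limma), and against E14.5 the value was -0.41 (adjusted p = 0.0611). Without pool A, B or C at E11.5, or B or C at E16.5, the first had an adjusted p of 0.0568 to 0.0841, and without E16.5 pool A the other passed (-0.56, adjusted p = 0.00981). Without the scaling to the library, the first value was 0.16 (adjusted p = 0.466) and the other 0.35. Between E14.5 and E11.5 0 of 4 passed (limma, 0 at an unadjusted p under 0.05), and Dlx6os1 had a value of 0.55 (95% interval 0.08 to 1.02, adjusted p = 0.388). Between E16.5 and E14.5 0 of 4 passed, with 1 at an unadjusted p under 0.05. Of all 12522 genes, 0.192% passed between E14.5 and E11.5, 17.1% between E16.5 and E14.5, and 17.4% between E16.5 and E11.5.

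The last question was how fast each RNA lost its label. A half-life was kept for a pool with over 500 covered Ts at each of 5 chase times, where the fitted half-life was between 0 and 24 h, and R2 exceeded 0.6. The fit takes converted over covered Ts, a rate that RNA made without label during the chase also lowers. It gives the half-life of an RNA only where its level stays constant, and the levels of some RNAs changed over the chase. Sox2ot was the 1 RNA kept in all 9 pools. In pools A, B and C its half-life was 3.42, 3.22 and 2.52 h at E11.5. It was 3.43, 4.99 and 2.99 h in those of E14.5 and 2.85, 3.66 and 4.11 h in those of E16.5. The means were 3.05 ± 0.477, 3.80 ± 1.05 and 3.54 ± 0.640 h (SD, n = 3), and the stages overlapped. Among transcripts kept at the same stage, this was the 12.9th, 28.6th and 51.6th percentile, where the medians of all at the 3 stages in turn were 4.43, 4.60 and 3.48 h. Libraries summed over all genes ended at 0.271%, 0.259% and 0.248% converted Ts at 12 h. All libraries carried 4sU, and no background rate was subtracted in these fits. The part of such a rate in the differences in hours between stages was not tested. On half-lives z-scored within each pool, the F-test over the 3 stages gave an adjusted p of 0.290 (limma, 0 of 1 RNA passed and 0 at an unadjusted p under 0.05, against 3.15% of 9505 transcripts), and E16.5 was above E11.5 by 0.73 SD (95% interval 0.18 to 1.28, adjusted p = 0.176).

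**Figure D4:**
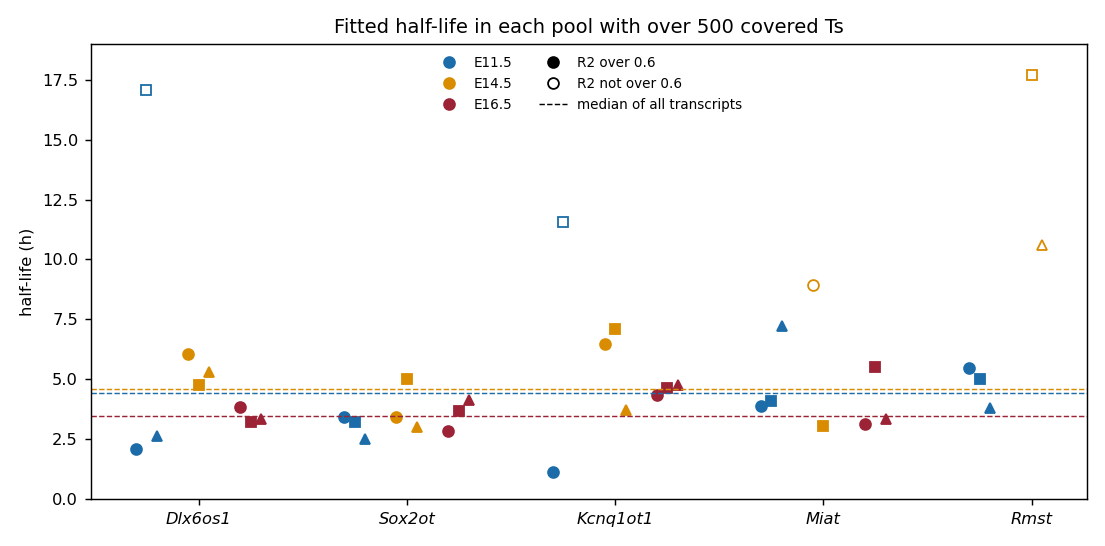
Half-life (h) fitted in each pool with over 500 covered Ts at all 5 chase times, by RNA and stage; circles are pool A, squares pool B and triangles pool C, open symbols had an R2 of at most 0.6, and dashed lines are the median of all transcripts kept at a stage. Sox2ot has 9 filled symbols between 2.52 and 4.99 h, and Rmst at E14.5 has open symbols only, at 17.7 and 10.6 h.

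Dlx6os1 had a half-life of 6.07, 4.74 and 5.31 h in the 3 pools at E14.5 (5.37 ± 0.668 h, SD, n = 3, 67.3rd percentile) and of 3.83, 3.23 and 3.34 h at E16.5 (3.46 ± 0.320 h, 49.6th percentile). At E11.5, pools A and C gave 2.08 and 2.64 h, while pool B gave 17.1 h with an R2 of 0.140 and was not kept. The level of Dlx6os1 rose 3.13-fold over this chase, so these are not half-lives at a constant level. With Ts summed over the 3 pools at E11.5, its rate was 0.856% at 0 h, 0.732% at 2 h, 0.184% at 4 h, 0.172% at 8 h and 0.295% at 12 h, the last value above the one before. Kcnq1ot1 had 6.48, 7.08 and 3.72 h at E14.5 (5.76 ± 1.79 h, 74.0th percentile) and 4.34, 4.64 and 4.77 h at E16.5 (4.59 ± 0.221 h, 74.1st percentile). At E11.5 1 pool was kept, at 1.11 h. Miat had 3.87, 4.09 and 7.20 h at E11.5 (5.05 ± 1.87 h) and 3.14, 5.52 and 3.34 h at E16.5 (4.00 ± 1.32 h), near the 65.0th and 63.0th percentile. At E14.5 1 of its pools was kept, at 3.05 h. These fits rested on few converted Ts late in the chase. At 12 h Kcnq1ot1 had 0 to 7 per library at E14.5 and 1 to 2 at E16.5. Miat had 2 to 5 per library at 12 h at E11.5 and at E16.5.

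Rmst had half-lives of 5.45, 5.01 and 3.79 h at E11.5 (4.75 ± 0.859 h, SD, n = 3, 58.4th percentile) and none that was kept at E14.5. There pool A had 277 covered Ts at 12 h, and pools B and C gave 17.7 and 10.6 h with R2 of 0.290 and 0.559. With Ts summed over the E14.5 pools, 89.5% of the 0 h rate was left at 2 h, 98.03% at 4 h, 71.5% at 8 h and 39.5% at 12 h, where the library as a whole kept 89.0%, 53.9%, 29.8% and 23.7%. At E11.5 Rmst had 38.3% left at 4 h and 37.0% at 8 h. The summed half-life at E14.5 was 13.1 h (R2 0.797), at the 97.9th percentile of 13933 transcripts fitted in this way, whose median was 4.74 h. At E16.5 Rmst had 56 to 442 covered Ts per library, too few for a rate.

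In a test chosen after these values had been seen, the share of the 0 h rate left in a pool, relative to its library, was higher for Rmst at E14.5 than at E11.5 by 1.40 on the log2 scale at 4 h (SE 0.315, adjusted p = 0.529, limma) and by 0.92 at 8 h (SE 0.189, adjusted p = 0.631, limma). Neither passed over all genes, although both were among those at an unadjusted p under 0.05. In these comparisons 0% of 12544 and 0% of 11847 genes passed, with 1003 and 837 at an unadjusted p under 0.05. In each of the 3 pools at E14.5 the rate was 2.41, 3.13 and 3.62 times the library rate at 4 h and 4.14, 3.08 and 4.96 times at 8 h, against 0.880, 1.69 and 0.889 times and 2.11, 2.16 and 1.82 times at E11.5. The groups did not overlap, but how many of all genes part in this way was not counted. Each E14.5 value rested on 9 to 18 converted Ts. The E11.5 values rested on 7 to 24 at 4 h and on 8 to 16 at 8 h.

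**Figure D5:**
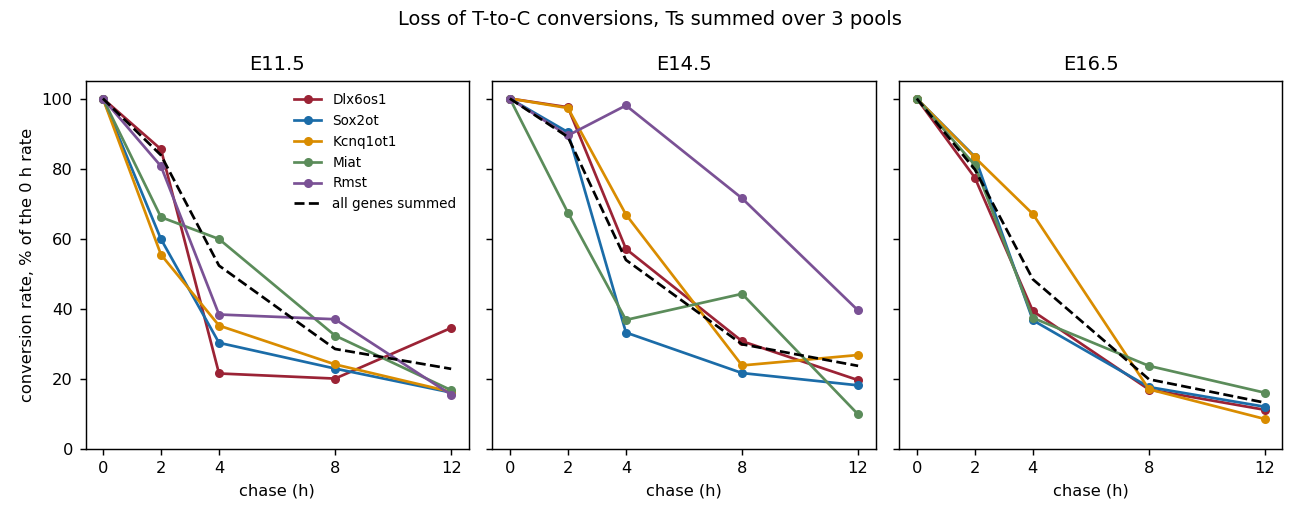
Conversion rate in percent of that at 0 h against hours of chase, with Ts summed over the 3 pools of a stage, for each RNA (colours) and for all genes summed (dashed). At E14.5 Rmst keeps 98.03% at 4 h and 71.5% at 8 h, where all genes keep 53.9% and 29.8%; Rmst is left out at E16.5.

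The wider set of long noncoding RNAs (29 names such as Meg3, Tug1, Peg13, Firre and Dlx1as, of which 26 were in the tables and 21 were tested) had 11 higher and 5 lower members from E11.5 to E14.5, 9 and 3 from E14.5 to E16.5, and 11 and 3 between E11.5 and E16.5. In these comparisons 25.1%, 24.1% and 31.4% of all genes were higher, and 23.5%, 25.4% and 33.1% were lower. The medians of the log2 fold changes of this wider set were 0.50, 0.06 and 0.64, against -0.0069, -0.0018 and -0.041 over all genes. Over 12 h of chase, 1 of 19 tested was higher and 2 lower at E11.5, 3 were lower at E14.5, and at E16.5 there were 2 higher and 3 lower. Of all genes, 17.4%, 11.2% and 12.5% were higher and 9.8%, 10.4% and 8.34% lower at the 3 stages in turn. Firre, an X-linked nuclear RNA, H19, an imprinted RNA, and Mir9-3hg, a host transcript of a neural microRNA, were the 3 that had fallen by E16.5, whichever earlier stage it was compared with. Of 13 proteins that build paraspeckles on Neat1, 11 were tested. The median of their log2 fold changes from E11.5 to E14.5 was -0.10. From E14.5 to E16.5 Hnrnpk, Nono and Nudt21 fell and Dazap1 rose, with a median of -0.01, where 25.4% of all genes fell and 24.1% rose. Of 15 genes beside or across from the 7 RNAs, 10 were tested. From E11.5 to E14.5 1 rose and 6 fell (median log2 fold change -0.41), where 25.1% of all genes rose and 23.5% fell, and from E14.5 to E16.5 6 rose and 3 fell (0.26), where 24.1% rose and 25.4% fell.

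The genes whose log2(cpm + 0.5) followed each RNA most closely over the 45 libraries were named as a description, among 16559 genes. The points share pools and stages, so that wells of 1 pool are not independent. Rmst went with Nhlh1 (Pearson's r 0.983), Tgfb2 (0.980) and Hopx (0.979), and Dlx6os1 with Dlx1as (0.982), Kcna6 (0.982) and Mef2c (0.980). Between Rmst and Dlx6os1 r was -0.935. Sox2ot went with Adcyap1 (0.906), Ankrd50 (0.901) and Sox1ot (0.899), Miat with Dmpk (0.892), Clcn2 (0.881) and Ankrd16 (0.870), and Kcnq1ot1 with Ino80d (0.812), Atf6 (0.805) and Yod1 (0.803).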

How the data were processed

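RNA of 45 SLAM-seq libraries was alkylated, selected by poly(A) tail and sequenced, so nuclear RNA without a tail is counted less well. The authors aligned reads with SlamDunk to mm10, summed values over GENCODE exons, and deposited counts of covered T positions, conversion rates as a fraction (printed here in percent) and cpm. Exon lengths and overlaps printed here come from an earlier GENCODE release than the authors used, which held 96.6% of the gene symbols. All cpm values were whole multiples of 1 read, within 0.01 reads. The deposited half-lives were used only to check the refit, of which 99.99% of 117534 lay within 1%. In the tables, 0 columns of libraries were unmatched.

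Counts of covered Ts were tested with edgeR 4.0.16 (quasi-likelihood F-test, TMM, genes where each library had over 10 counts) in place of the DESeq2 of the study. A read covers several Ts, so these counts are not independent. Fold changes are of TMM-scaled counts while cpm values are as deposited, so they can differ. Relative rates at 0 h (over 500 covered Ts and a converted T in each library) and half-lives, fitted as exp(-kx) to rates scaled to 0 h, were tested with limma 3.58.1. Calls were made at a Benjamini-Hochberg adjusted p under 0.05. Alternatives were DESeq2 1.42.0, RLE factors, recovered reads, no filter, other chase times, scalings, fits and coverage limits, a replicate block, and leaving out each pool. Exact binomial intervals (95%) cover counting error only. The edgeR fits were tried on simulated data for E16.5 against E14.5 at 0 h and for 12 h against 0 h at E11.5. The limma tests between stages and the half-life fit were also tried on simulated data. The contrasts of the change over the chase and the test of the share of the 0 h rate left were not. The simulated half-lives had more covered Ts than any RNA here, pure exponential loss and no background. They do not bear on fits from few converted Ts. R 4.3.3 and Python 3.11.15 were used.

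Within a stage, the labels tie the wells of 1 letter to 1 pool, and their deviations correlated at 0.0667 to 0.422. A letter shared between stages marks different embryos (-0.0902 to 0.0777). Named genes were the members, fixed lists and neighbours, and the 3 genes with the highest Pearson's r to each member. The members and lists were chosen with earlier results of these data known.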

Additional observations from a re-analysis of the deposited data

Results flagged for a closer look

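The change of level from 0 h to 12 h of chase differed between stages for Dlx6os1, by a log2 contrast of -2.499 for E14.5 minus E11.5 and of -2.215 for E16.5 minus E11.5 (edgeR, adjusted p = 6.86e-10 and 8.35e-09). The level rose in 3 of 3 pools at E11.5 and fell in 3 of 3 at each later stage. Among the genes named beside it, the same contrasts passed for Dlx1as (-3.445 and -3.292, adjusted p = 3.26e-10 and 1.02e-09), for Dlx5 (-1.662 and -2.123, adjusted p = 0.000763 and 2.47e-05) and, for E16.5 minus E11.5, for Dlx6 (-1.909, adjusted p = 0.00848). For Dlx6 the contrast of E14.5 minus E11.5 was -0.96 (adjusted p = 0.296). Cdkn1c, which fell at E11.5, had contrasts of 0.7855 and 0.6793 (adjusted p = 0.0184 and 0.0378). The E11.5 libraries at 12 h are those with 29686 to 67623 cpm of Gm42418, and its part in these differences was not tested. In place of the 12 h libraries, those at 8 h gave contrasts of -1.31 (adjusted p = 0.000393) and -1.15 (adjusted p = 0.00113) for Dlx6os1.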

How the results depend on the processing

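The number of the 5 RNAs that passed stayed within 1.5 times in 90 cases and moved in 4 under alternatives that kept all pools, and for single RNAs 286 values kept direction and call, 23 turned sign, 7 lost the call and 4 gained it. With 8 h in place of 12 h libraries, chosen after seeing the data, 2 of 5 passed at E14.5 in place of 4. Leaving out 1 pool gave 2 to 4 at E14.5 and 1 to 3 at E16.5. The relative rate between E16.5 and E14.5 gave 1 in place of 0 with over 2000 covered Ts and 1 without scaling (0 to 1 leaving out a pool), and between E16.5 and E11.5 it gave 3 in place of 1 without scaling (0 to 1 leaving out a pool). Without scaling the libraries' own rates enter, so that values turned to 0.54 (Miat), 0.57 (Dlx6os1) and 0.35 (Sox2ot) for E16.5 against E14.5, and to 0.56 (Kcnq1ot1, adjusted p = 0.0398) and 0.16 (Sox2ot) for E16.5 against E11.5. The other reversals were of values that passed in neither setting, except Rmst at 12 h at E14.5 (adjusted p = 0.0499), which did not pass with RLE factors (adjusted p = 0.0512) or without the filter (adjusted p = 0.0860) either, and the cause was not tested. Between E14.5 and E16.5, Kcnq1ot1 was at 0.01122 with DESeq2 and 0.01112 with RLE factors. Rmst at 12 h at E11.5 was at -0.007042 without the filter, and with 8 h libraries it was at -0.27, 0.12 and 0.20 at the 3 stages. For the change over the chase, Kcnq1ot1 (E14.5 minus E11.5) was at -0.009187 with DESeq2, -0.009331 with RLE factors and -0.002357 with recovered reads, and Sox2ot (E16.5 minus E11.5) at -0.002606 with DESeq2 and -0.002536 with RLE factors. With 8 h libraries, Rmst was at 0.39 (E14.5 minus E11.5) and 0.47 (E16.5 minus E11.5), Miat at 0.02861 (E16.5 minus E14.5) and Kcnq1ot1 at 0.40 (E16.5 minus E11.5). The relative half-life of Sox2ot was at -0.03813 (E14.5 against E11.5) with a line through log rates and at -0.26 h (E16.5 against E14.5) without z-scores.

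Leaving out 1 pool turned the sign of values that had not passed, with these ranges: between stages at 0 h, Kcnq1ot1 -0.13 to 0.20 (E16.5 against E14.5) and Miat -0.41 to 0.08221 (E16.5 against E11.5); at 12 h at E11.5, Rmst -0.14 to 0.25 and Miat -0.34 to 0.14. For the change over the chase they were Kcnq1ot1 -0.15 to 0.11 and Miat -0.33 to 0.15 (E14.5 minus E11.5), Miat -0.38 to 0.0691 (E16.5 minus E14.5), and Sox2ot -0.07353 to 0.07146, Miat -0.48 to 0.003925 and Kcnq1ot1 -0.47 to 8.717e-06 (E16.5 minus E11.5). For the relative rate they were Kcnq1ot1 -0.06192 to 0.33 and Miat -0.63 to 0.06235 (E16.5 against E14.5) and Miat -0.13 to 0.17 (E16.5 against E11.5).

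With the replicate block, pools paired over the chase, 3, 4 and 3 of the 5 RNAs passed at 12 h, as without it, and the count of all genes went from 3575 to 5642 at E14.5, from 3446 to 5490 at E16.5, and for the change over the chase from 1005 to 2352, 150 to 1049 and 1474 to 3199. Kcnq1ot1 (E14.5 minus E11.5) turned to -0.02528 there. Between stages, where letters do not pair, the block left 4 of 5 in each comparison, 0 genes for the relative rate between E14.5 and E11.5 (24 without it), and 0 for the half-life F-test (299 without it). Counts of all genes also moved by over 1.5 times for the change over the chase with 8 h libraries (349, 16 and 469) and with DESeq2 (249 for E16.5 minus E14.5), for the relative rate without scaling (8, 10340 and 9863) and with over 2000 covered Ts (37 for E14.5 against E11.5), and for the half-life F-test with R2 over 0.8 (547) and in hours (2296). Depth limited the rates of low RNAs: Rmst had up to 27 converted Ts per library at E14.5, and its reads fell below the filter when recovered reads were tested.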
